A study of Mus musculus with 9 samples.

Results

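The 10 genes described here take up acetate, turn it into acetyl-CoA, or supply and use acetyl-CoA by other routes: Slc16a1, Acss1, Acss2, Acss3, Cs, Slc25a1, Acly, Acaca, Acat1 and Acat2. They were chosen by name, and all 10 were found among the 26202 genes of the deposited table. The table holds 9 libraries of ATDC5, a clonal mouse line that makes cartilage in culture. There were 3 control, 3 acetate and 3 ethanol libraries, and all groups shared the same medium. It held 5% serum, 1% penicillin-streptomycin, 50 µg/mL ascorbate, 10 mM beta-glycerophosphate and insulin-transferrin-selenium. The sources used here give neither dose nor time for either agent, nor what the controls received. Acetate is an end product of ethanol metabolism, and the series asks whether acetate carries part of the effect of ethanol. Nothing in the labels tells whether replicates were separate cultures, so p-values measure the spread between these libraries, which may be technical.

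Acetate crosses the plasma membrane through monocarboxylate transporters such as MCT1, the product of Slc16a1, which need the partner protein basigin to reach the cell surface. Acyl-CoA synthetases then join acetate to coenzyme A, ACSS2 in the cytosol and nucleus and ACSS1 in mitochondria. Most acetyl-CoA of the cytosol has another source: citrate synthase (Cs) makes citrate in mitochondria, the citrate carrier (Slc25a1) exports it, and ATP-citrate lyase (Acly) cleaves it. Cytosolic acetyl-CoA feeds fatty acid synthesis through acetyl-CoA carboxylase (Acaca), sterol synthesis through the thiolase ACAT2, and the acetylation of histones. ACAT1 is the mitochondrial thiolase of ketone body and isoleucine breakdown.

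Levels are TMM-scaled CPM, that is, read counts relative to library size (CPM) after the authors' scaling between libraries. Recovered library sizes ran from 28.7 M to 41.9 M reads, and 1 read was worth 0.0231 to 0.0348 CPM. All 10 chondrocyte marker genes checked had a mean above 1 CPM, while the summed markers of immune, endothelial, epithelial, muscle, fat and liver cells reached at most 2.15 CPM in any library. Acetate replicate 2 stood apart: its difference from the other acetate libraries followed the GC content of transcripts (Pearson r = 0.81 across 12745 genes, which are not independent replicates). Some of the results that involve it are therefore also given without it. Testing with limma was limited to genes whose mean reached 1 CPM, and was done on log2 of CPM plus 1. This left 12868 genes and 8 of the 10 described here. Adjusted p-values are Benjamini-Hochberg values from limma over all 12868 genes, and 0.05 is the threshold. Fold changes and their standard errors are on this log2 scale. RNA from a whole culture cannot tell fewer expressing cells from less RNA per cell.

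Nearly all transcript of the synthetase family in these cells came from Acss2. Acss2 (chromosome 2, 155517948 to 155585724 on GRCm38) stood at 32.4, 26.8 and 27.1 CPM in the control libraries, at 29.5, 28.2 and 17.7 in acetate and at 20.03, 18.3 and 14.3 in ethanol. Every ethanol library lay below every control, and acetate replicate 3 lay within the ethanol range while the other acetate libraries lay within the control range. Acss1, the mitochondrial enzyme, had 0 reads in 6 libraries and 1 or 2 reads in the other 3, which is under the floor of 3 reads, 0.0692 to 0.104 CPM in these libraries. Acss3, a mitochondrial synthetase that prefers propionate in the rat, had 6 to 35 reads a library, or 0.170 to 0.889 CPM. Its values were 0.330, 0.243 and 0.787 in control, 0.889, 0.349 and 0.705 in acetate and 0.170, 0.265 and 0.415 in ethanol, so that all 3 groups overlapped. Per kilobase of the principal transcript, Acss2 made up 97.3% to 99.5% of the summed level of the 3 synthetase genes in each library. Acss1 and Acss3 were too low for the test; without a filter on low values, the lowest adjusted p that limma gave for either gene in the 3 comparisons was 0.314, for Acss3 in acetate against ethanol.

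Among the 10 genes and per kilobase, Cs had the highest control level at 85.9 ± 4.41 CPM per kb (SD, n = 3 as for all groups). Slc25a1 (63.5 ± 1.85), Acly (58.2 ± 3.61), Acat2 (53.5 ± 2.75) and Acat1 (47.2 ± 4.72) followed, and neighbours among these 4 overlapped in their control values. Slc16a1 came next at 18.1 ± 0.586, apart from its neighbours on both sides. Acss2 (9.81 ± 1.08) and Acaca (6.98 ± 0.702) were lower, Acss3 (0.0966 ± 0.0622) was lower still and Acss1 was under the floor of 3 reads. The lyase gene of the citrate route thus stood 5.60 to 6.27 times as high per kilobase as Acss2 in the control libraries. This ratio was 7.78 to 10.2 in ethanol, above every control, and 5.57, 6.69 and 8.19 in acetate, with the highest value in replicate 3.

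**Figure D1:**
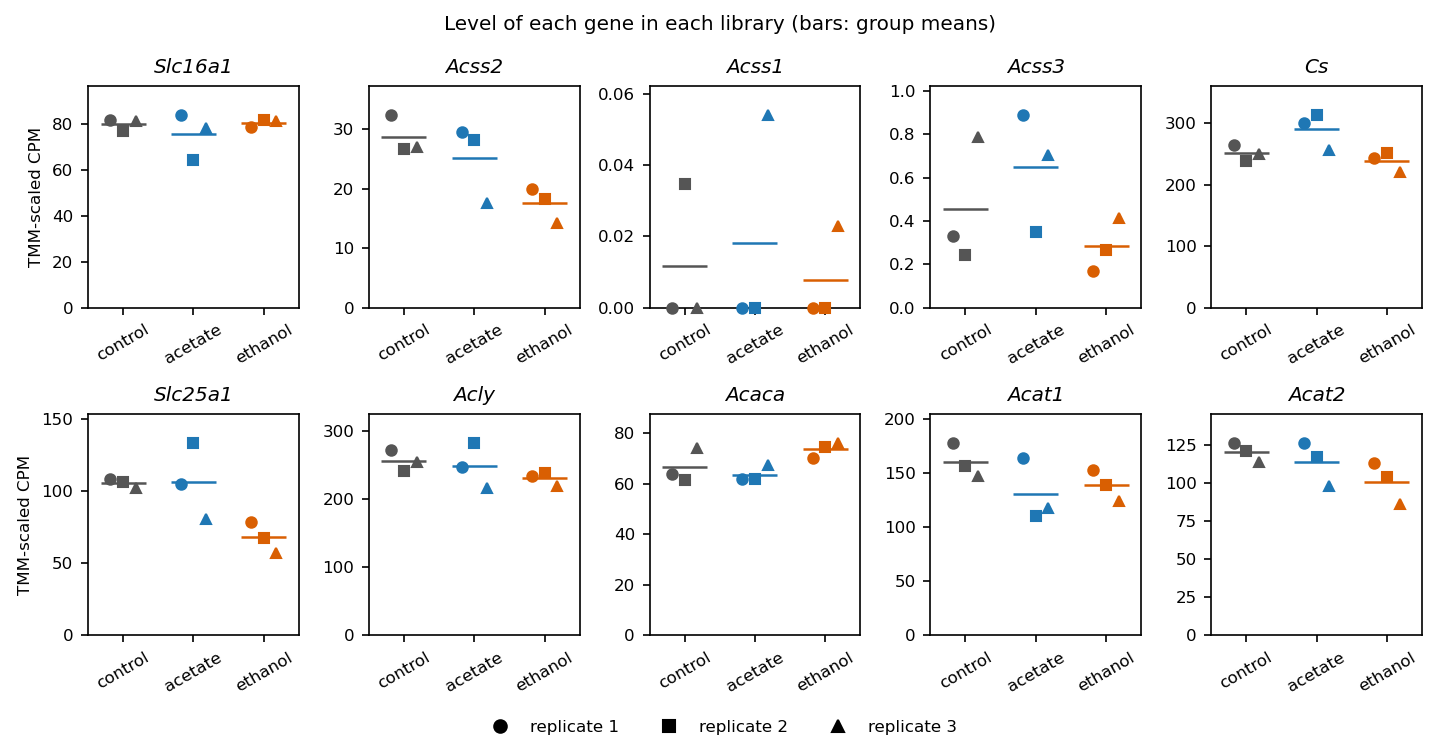
TMM-scaled CPM (vertical axes, from 0, each gene with its own scale) of the 10 genes in each of the 9 libraries, by group. Symbols mark the replicate number and horizontal bars the group means. Acss2 and Slc25a1 lie lower in all 3 ethanol libraries than in any control, Slc16a1 lies between 64.2 and 84.1 CPM throughout, and Acss1 is at 0 to 2 reads.

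None of the 8 genes tested passed the threshold in any of the 3 comparisons. The numbers with an unadjusted p under 0.05 were 0 of 8 for acetate against control, 2 of 8 for ethanol against control and 3 of 8 for acetate against ethanol. Over all genes tested, limma called 1.00% for acetate against control, 3.93% for ethanol against control and 3.73% for acetate against ethanol, and the shares with an unadjusted p under 0.05 were 14.6%, 19.0% and 21.1%. The median log2 fold change of the 8 genes was -0.07 for acetate against control, -0.18 for ethanol against control and 0.14 for acetate against ethanol, beside -0.0097, -8.4e-04 and -0.0100 over all genes tested. The comparisons share libraries and are not independent of each other.

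Acss2 and Slc25a1 were the genes furthest from control in ethanol. Slc25a1, which codes for the carrier that brings citrate out of mitochondria (chromosome 16, 17925223 to 17928219), stood at 108, 106 and 102 CPM in control and at 78.6, 67.9 and 57.3 in ethanol. The values of the groups did not overlap, and the ethanol level was 56.0% to 72.5% of the control with the same replicate number. For Acss2 that share was 52.7% to 68.4%. The log2 fold change was -0.69 ± 0.20 (95% interval -1.15 to -0.23) for Acss2, with an adjusted p = 0.10 from limma. For Slc25a1 it was -0.64 ± 0.18 (95% interval -1.06 to -0.23), with an adjusted p = 0.095 from limma. In acetate, Slc25a1 had 105, 134 and 80.8 CPM, a range that held all control values. The fold change of acetate against control was -0.22 ± 0.20 for Acss2 (95% interval -0.68 to 0.24, adjusted p = 0.56 in limma) and -0.02 ± 0.18 for Slc25a1 (95% interval -0.43 to 0.40, adjusted p = 0.96 in limma). Without acetate replicate 2 it was -0.31 for Acss2 and -0.19 for Slc25a1 (adjusted p = 0.46 and 0.51 in limma).

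The labels state no pairing, but same-numbered control and ethanol libraries deviated together over all genes (r = 0.36 to 0.67). Libraries of unlike number reached r = 0.25. Deviations from a mean of 3 libraries are tied to each other, and this pairing was read from the same data as the fit. With replicate number as a block, both genes fell past the threshold in limma, Acss2 with adjusted p = 0.028 and Slc25a1 with adjusted p = 0.045, and both were lower in 3 of 3 pairs. That fit called 8.35% of all genes, 5.07% lower. Both also passed without acetate replicate 2, whose values enter the shared spread, with adjusted p = 0.023 for Acss2 and 0.0066 for Slc25a1 in limma, where 21.5% of all genes were called. Over the 19 alternatives run, the adjusted p from limma ranged from 5.5e-18 to 0.38 for Acss2, with 7 under the threshold. It ranged from 1.0e-20 to 0.34 for Slc25a1, with 6 under it. Values as low as the smallest of these lean on the spread that limma shares among genes, beyond what 3 libraries a group can bear out. They are not read as support, although the counts under the threshold include them. The same holds for the ranges over alternatives given below for other genes and comparisons. The fold change was negative in all 19, at -0.79 to -0.56 for Acss2 and -0.75 to -0.53 for Slc25a1. The summed level of the chondrocyte markers moved with the groups as well, at 9558 to 12573 CPM in control, 5131 to 5878 in acetate and 4596 to 5726 in ethanol. This sum is weighted to abundant genes, as a single marker reached 9958 CPM. In ethanol, Col2a1, Col9a1, Col10a1, Acan, Matn1, Comp and Ihh were called lower. Sox6 and Sox9 were lower but missed the threshold, and Sox5 was at 0.026 (adjusted p = 0.94 in limma). The part of the markers in the differences of Acss2 and Slc25a1 was not tested.

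**Figure D2:**
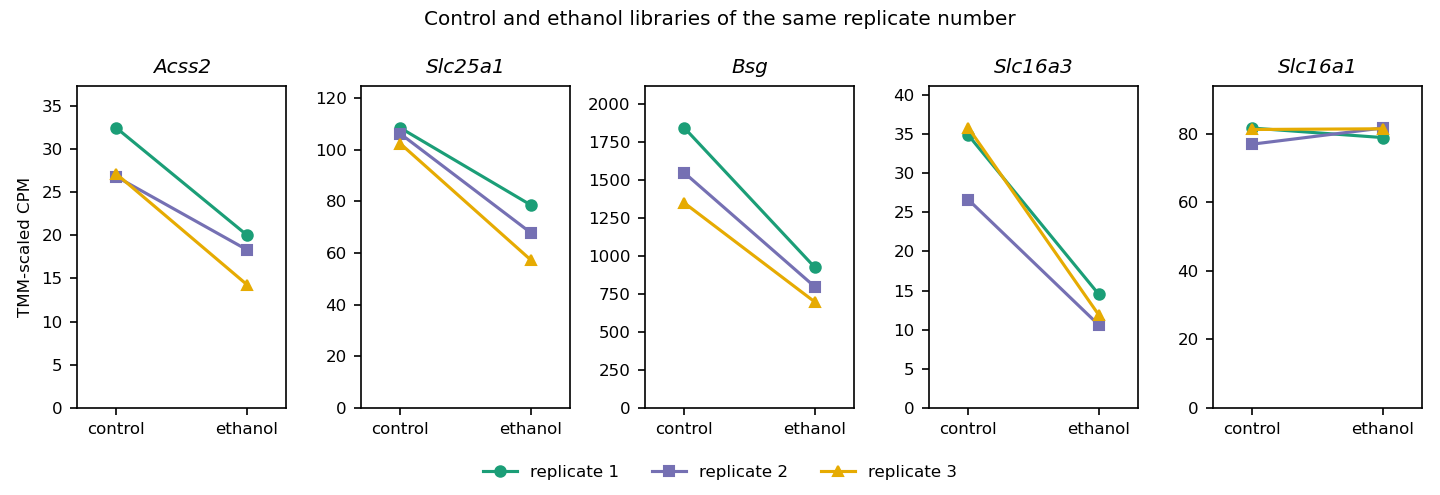
TMM-scaled CPM (vertical axes, from 0) of 5 genes in the control and ethanol libraries, with a line for each replicate number. All 3 lines go down for Acss2, Slc25a1, Bsg and Slc16a3, while those of Slc16a1 stay between 76.99 and 81.7 CPM.

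Promoter sequences from RefSeq on GRCm38.p6 were at hand for 8 of the 10 genes, as 250 bases before to 50 bases after the gene start. They are shown for Acss2 and Slc25a1, the genes with the lowest fold changes in ethanol against control, and for the transporter gene Slc16a1, whose fold change there was nearest to 0. Letters in capitals mark matches, on either strand, to the NF-Y box CCAAT or the E-box CACGTG, and the sequences run 5′ to 3′ on the strand of the gene. The Acss2 promoter is chr2:155517793-155518092 on the plus strand, that of Slc25a1 chr16:17928170-17928469 on the minus strand, and that of Slc16a1 chr3:104638414-104638713 on the plus strand.
Acss2: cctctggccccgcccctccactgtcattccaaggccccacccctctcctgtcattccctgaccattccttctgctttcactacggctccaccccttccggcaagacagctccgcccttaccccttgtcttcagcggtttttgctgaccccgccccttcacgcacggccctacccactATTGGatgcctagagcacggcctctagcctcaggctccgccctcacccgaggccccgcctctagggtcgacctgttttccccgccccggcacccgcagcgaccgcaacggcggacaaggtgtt
Slc25a1: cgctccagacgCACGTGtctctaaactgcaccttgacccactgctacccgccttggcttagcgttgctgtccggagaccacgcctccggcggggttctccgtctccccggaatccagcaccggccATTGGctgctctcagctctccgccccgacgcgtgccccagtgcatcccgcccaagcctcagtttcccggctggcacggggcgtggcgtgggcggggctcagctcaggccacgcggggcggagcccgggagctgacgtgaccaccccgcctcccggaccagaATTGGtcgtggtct
Slc16a1: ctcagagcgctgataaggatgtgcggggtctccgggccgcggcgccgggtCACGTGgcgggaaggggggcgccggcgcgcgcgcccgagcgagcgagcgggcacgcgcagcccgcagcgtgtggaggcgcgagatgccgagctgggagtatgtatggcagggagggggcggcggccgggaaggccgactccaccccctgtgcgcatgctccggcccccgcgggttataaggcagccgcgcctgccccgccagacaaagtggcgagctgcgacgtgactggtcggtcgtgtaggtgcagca
The Acss2 promoter held 1 NF-Y box, 73 bases before the RefSeq start on which the window is set. That start lies downstream of the gene start given above for Acss2, which is from GENCODE, so the box falls within the gene range given there. Slc25a1 held 2, the first 125 bases before the start, and an E-box 239 bases before it. Slc16a1 held an E-box 200 bases before the start and no NF-Y box. Among the 8 promoters, 4 had an NF-Y box and 2 an E-box, where 37.4% and 7.15% of all 32851 promoters of that length did. The letters TCACNCCAC of a sterol regulatory element, searched on both strands, were in none of the 8 and in 1.24% of all. A match is a run of letters and no sign that a factor binds, and a missing match concerns this window only.

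The transcript of MCT1 showed no difference between groups that these libraries could resolve. Slc16a1 (chromosome 3, 104638668 to 104658462) had 81.7, 76.99 and 81.3 CPM in control, 84.1, 64.2 and 78.4 in acetate and 78.9, 81.7 and 81.5 in ethanol. All values but that of acetate replicate 2 lay between 76.99 and 84.1. The log2 fold change of ethanol against control was 0.013 ± 0.12 (95% interval -0.25 to 0.28, adjusted p = 0.97 in limma). That of acetate against control was -0.09 ± 0.12 (95% interval -0.36 to 0.18, adjusted p = 0.68 in limma) and became 0.022 without acetate replicate 2. The GC content of the longest Slc16a1 transcript, 42.9%, is the second lowest of the 10 genes. With the GC trend removed, the fold change of acetate against control was 0.19 (adjusted p = 0.42 in limma; 0.29 to 0.93 over its alternatives).

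Of the other transporter genes, Slc16a3 and Bsg fell in ethanol. The list of 7 held other monocarboxylate and acetate transporters with their partner proteins, and 3 were tested. Slc16a3, which codes for the lactate exporter MCT4, had 34.9, 26.6 and 35.8 CPM in control, 33.6, 43.2 and 33.8 in acetate and 14.5, 10.6 and 11.9 in ethanol. Ethanol values were thus below all others, and Slc16a3 fell by 1.33 ± 0.17 on the log2 scale against control (adjusted p = 0.0045 in limma). Bsg, the gene of basigin, the partner of MCT1 and MCT4, had 1844, 1549 and 1350 CPM in control, 1744, 1715 and 1081 in acetate and 925, 798 and 698 in ethanol. Bsg was below every control and acetate library in each ethanol library and fell by 0.97 ± 0.21 on the log2 scale (adjusted p = 0.038 in limma). In each replicate number, ethanol stood at 50.2% to 51.7% of control for Bsg.

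The Bsg call was lost when any 1 of the control or ethanol libraries was left out: limma gave adjusted p = 0.18, 0.12 and 0.074 without control replicate 1, 2 and 3, and 0.077, 0.16 and 0.16 without ethanol replicate 1, 2 and 3. It was also lost without a filter on low values (0.085), and adjusted p = 0.0064 was reached with replicate number as a block (1.5e-32 to 0.18 over its alternatives). The call of Slc16a3 held in all 19 alternatives. Emb, which codes for the related partner embigin, missed the threshold in ethanol (log2 fold change -0.32, adjusted p = 0.60 in limma). It passed in 3 of 19 alternatives (adjusted p 7.2e-05 to 0.82 in limma). These include the fit without acetate replicate 2, where 21.5% of all genes were called. Its control values were 30.2, 30.5 and 33.2 CPM, and its ethanol values 23.4, 23.8 and 27.6, all below control. The acetate values of Emb, 30.004, 12.4 and 28.9, were also all below control, with the low one in acetate replicate 2. Slc16a7, Slc16a8, Slc5a8 and Slc5a12, which code for further monocarboxylate carriers, stayed under 1 CPM in every library and were not tested. Among these 4, Slc5a8, a sodium-coupled carrier gene, had 0.0550, 0.0348 and 0.102 CPM in control, 0.152, 0 and 0.163 in acetate and 0.340, 0.794 and 0.254 in ethanol, from at most 33 reads a library. Its ethanol values lay above all others, and it was named after its values were seen.

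In the citrate route, the fold changes of ethanol against control were smaller for Cs and Acly than for Slc25a1. With all libraries, this was not so for acetate against control. Without acetate replicate 2, that comparison gave -0.19 for Slc25a1, -0.14 for Acly and 0.14 for Cs. Cs (chromosome 10, 128337734 to 128362479) had 265, 239 and 250 CPM in control, 300, 314 and 257 in acetate and 243, 252 and 221 in ethanol. The acetate values lay above all ethanol values and overlapped with control. The log2 fold change was 0.20 ± 0.12 for acetate against control (adjusted p = 0.42 in limma) and -0.08 ± 0.12 for ethanol against control (adjusted p = 0.80 in limma). Acetate against ethanol gave 0.28 ± 0.12 for Cs (95% interval 0.018 to 0.54, adjusted p = 0.22 in limma), and 0.22 without acetate replicate 2. Acly (chromosome 11, 100476353 to 100528000) had 272, 240 and 255 CPM in control, 246, 283 and 217 in acetate and 234, 238 and 219 in ethanol. Ethanol lay just below control with no overlap, at -0.15 ± 0.12 (95% interval -0.42 to 0.13, adjusted p = 0.57 in limma). As a ratio within each library, Slc25a1 per kilobase stood at 0.719 to 0.781 of Cs in control, 0.552 to 0.748 in acetate and 0.456 to 0.568 in ethanol, so that the carrier was lower against the synthase in each ethanol library than in any control.

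Among the enzymes that use acetyl-CoA, Acaca (chromosome 11, 84129672 to 84401651) had 63.9, 61.3 and 74.0 CPM in control, 61.8, 61.7 and 67.3 in acetate and 70.0, 74.3 and 76.2 in ethanol. Ethanol values were above those of acetate, and both overlapped with control. The fold change of ethanol against control was 0.15 ± 0.11 (adjusted p = 0.53 in limma), the opposite sign to that of Acss2. Acetate against ethanol gave -0.21 ± 0.11 for Acaca (adjusted p = 0.30 in limma). Acat2 (chromosome 17, 12942890 to 12960747) had 126, 121 and 114 CPM in control, 126, 117 and 97.8 in acetate and 113, 104 and 85.8 in ethanol. Its ethanol values lay just below the controls, with a log2 fold change of -0.26 ± 0.14 (95% interval -0.57 to 0.052, adjusted p = 0.35 in limma). Acat2 was lower in 3 of 3 pairs; with the block limma gave adjusted p = 0.14, and with the block and the GC trend removed 0.0090, below the threshold (2.7e-04 to 0.80 over 19 alternatives, 2 of them under 0.05).

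Reads of Acat2 can be shared with its tandem copy Acat3: 45.9% of all 50-base windows of the principal Acat2 transcript occurred unchanged in that of Acat3. Acat3 stood at 18.4 ± 1.12 CPM in control, 17.3 ± 2.43 in acetate and 15.9 ± 1.77 in ethanol, with groups that overlapped, and missed the threshold in limma (ethanol against control -0.21 ± 0.13, adjusted p = 0.46). The mitochondrial thiolase gene Acat1 (chromosome 9, 53580522 to 53610382) had 178, 157 and 147 CPM in control, 164, 110 and 118 in acetate and 153, 139 and 124 in ethanol. Groups overlapped, and Acat1 had the lowest fold change of the 8 genes in acetate, -0.31 ± 0.17 (95% interval -0.68 to 0.060, adjusted p = 0.40 in limma). Without acetate replicate 2 it was -0.20, and Acss2 was then lower, at -0.31. In ethanol against control, the fold change of Acat1 was -0.21 ± 0.17 (adjusted p = 0.55 in limma). That adjusted p ran from 0.0038 to 0.91 over 19 alternatives, 2 of them under 0.05. Against the control of the same replicate number, Acat1 was lower in 3 of 3 pairs in acetate and in ethanol.

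In ethanol against control, 4 of the 8 genes had groups that did not overlap, all lower: Acss2, Slc25a1, Acly and Acat2. Over all genes tested, 43.4% had groups that did not overlap, and 23.3% were lower without overlap. With only 8 genes, nothing particular to them is read from this count. In acetate against control none of the 8 separated, against 19.5% of all genes. In acetate against ethanol, Slc25a1 and Cs were higher and Acaca lower without overlap, 3 of 8 against 27.8%.

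The direct comparison of acetate with ethanol placed Slc25a1 at 0.62 ± 0.18 (95% interval 0.21 to 1.04, adjusted p = 0.10 in limma) and Acss2 at 0.47 ± 0.20 (95% interval 0.015 to 0.93, adjusted p = 0.23 in limma). Slc25a1 has the highest GC content of the 10 genes, 59.1%, and its highest value of all libraries, 134 CPM, was in acetate replicate 2. Without that library its fold change was 0.45, with adjusted p = 0.075 in limma. Acss2 was higher in acetate than in ethanol in 3 of 3 replicate numbers. Without acetate replicate 3, limma gave 0.70 with adjusted p = 0.049 for Acss2 and 0.81 with adjusted p = 0.032 for Slc25a1, where 5.48% of all genes were called. Without acetate replicate 2, Acss2 was at 0.38 with adjusted p = 0.28 in limma. Over the 19 alternatives, adjusted p from limma ran from 3.0e-04 to 0.53 for Acss2 and from 1.2e-07 to 0.34 for Slc25a1.

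**Figure D3:**
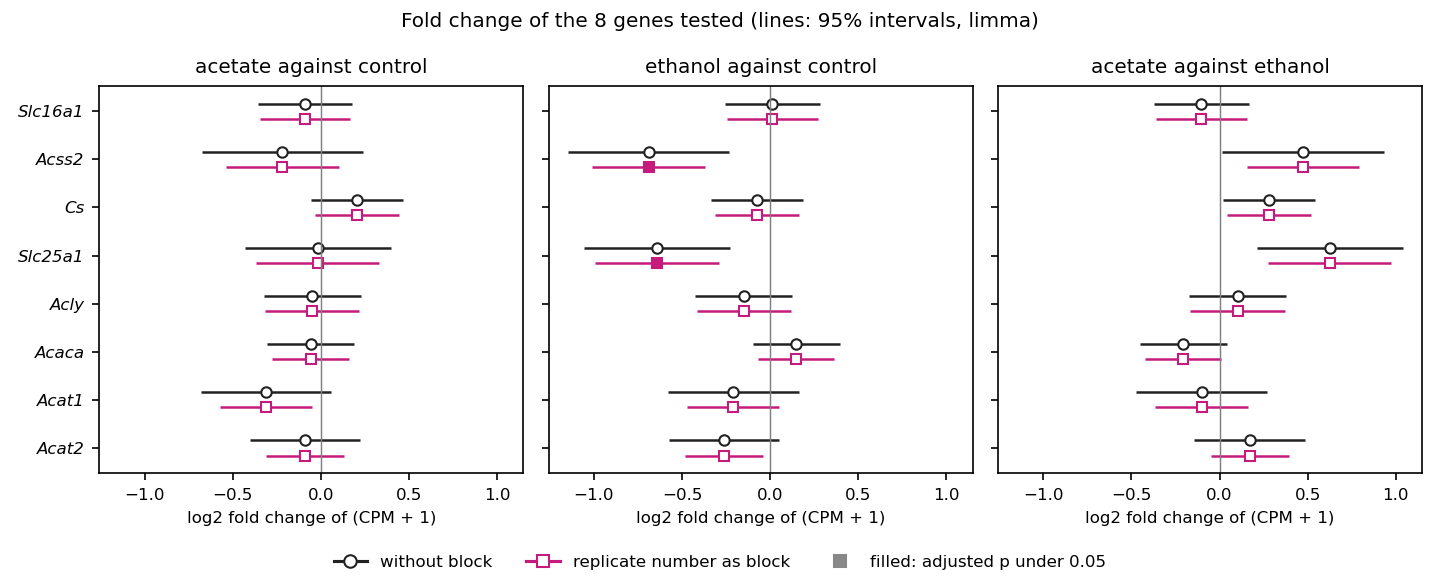
Log2 fold changes of CPM plus 1 (horizontal axes) of the 8 genes tested, in 3 comparisons, without a block (circles) and with replicate number as a block (squares). Lines are 95% intervals from limma and filled symbols have an adjusted p under 0.05. Acss2 (-0.69) and Slc25a1 (-0.64) stand apart in ethanol against control, and their squares are the filled ones.

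Of 110 genes in 10 lists, 103 were tested, and limma called 0 for acetate against control, where 1.00% of all genes were called. It called 2 for ethanol against control, both lower (Bsg and Slc16a3), where 2.45% of all genes were called lower. It called 1 for acetate against ethanol, higher (Slc16a3), where 2.84% of all genes were called higher. An unadjusted p under 0.05 was found for 9, 7 and 12 of the 103 in these comparisons, beside 14.6%, 19.0% and 21.1% of all genes. With replicate number as a block, which called 6.40% of all genes for acetate against ethanol, Bsg also rose there (adjusted p = 0.010 in limma; 5.6e-15 to 0.21 over its alternatives). Among 14 genes of pyruvate entry and pyruvate dehydrogenase none was called, with a median of -0.07 in ethanol; Pdha1, the catalytic subunit gene, stood at 305 ± 19.96 CPM in control and 259 ± 8.17 in ethanol, and the kinase gene Pdk1 at 263 ± 15.3 and 224 ± 7.58. With the block, Pdk4, a kinase that switches the complex off, rose in ethanol (0.57 ± 0.13, adjusted p = 0.049 in limma; 2.7e-14 to 0.25 over its alternatives); Pdk4 was named after its values were seen.

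The calls by list that follow are those of the fit without a block, unless stated. None of the 22 genes of the citric acid cycle and malic enzyme was called. Their median was -0.13 in ethanol, with 19 of 22 negative, and -0.05 in acetate. The median over all genes tested in ethanol was -8.4e-04. Such signs in ethanol were not particular to this list: 16 of 18 sterol synthesis genes were negative, and 5 of 9 of fatty acid synthesis. Mdh2, the mitochondrial malate dehydrogenase gene, stood at 296 ± 28.9 CPM in control, 365 ± 83.4 in acetate and 276 ± 27.7 in ethanol. Me1, which makes cytosolic NADPH, stood at 354 ± 31.8, 271 ± 85.7 and 257 ± 18.3. Its fold change of ethanol against control, -0.46 with adjusted p = 0.26 in limma, passed in 5 of 19 alternatives (8.97e-11 to 0.64). The 18 sterol synthesis genes had a median of -0.11 in ethanol and -0.10 in acetate with no call. Hmgcs1, the synthase that takes up acetoacetyl-CoA from ACAT2, stood at 648 ± 26.2 CPM in control, 488 ± 125 in acetate and 607 ± 17.5 in ethanol. Cyp51, a later enzyme of the pathway, stood at 348 ± 2.49, 287 ± 83.7 and 377 ± 9.57.

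Dhcr7, the last reductase of cholesterol synthesis, missed the threshold in ethanol against control (log2 fold change -0.26, adjusted p = 0.34 in limma). It also missed it in acetate against ethanol (0.52, adjusted p = 0.075 in limma). By adjusted p in limma, Dhcr7 passed in 4 of 19 alternatives in the former (1.0e-03 to 0.69) and in 5 in the latter (8.8e-05 to 0.25). The 4 include the fit without acetate replicate 2, where 21.5% of all genes were called.

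In the list of 9 fatty acid synthesis genes, medians were -0.17 in acetate and -0.09 in ethanol, again with no call. The desaturase genes Scd2 and Scd1 had the highest levels, Scd2 with 2753 ± 134 CPM in control, 2280 ± 260 in acetate and 2278 ± 27.3 in ethanol and Scd1 with 589 ± 34.8, 461 ± 81.6 and 504 ± 13.2. Fads1, a desaturase gene of polyunsaturated fatty acids, missed the threshold in ethanol against control (log2 fold change -0.35, adjusted p = 0.083 in limma). It passed there in 5 of 19 alternatives (adjusted p 7.3e-07 to 0.33 in limma). These include the fit without acetate replicate 2, where 21.5% of all genes were called. The 9 tested regulators of the SREBP and ChREBP factors had medians of -0.02 and -0.18, with Srebf2, the sterol-sensing factor gene, at 283 ± 3.47 CPM in control, 330 ± 76.9 in acetate and 254 ± 13.8 in ethanol and Mbtps1, which codes for the first protease that cuts SREBPs, at 264 ± 9.50, 258 ± 27.7 and 234 ± 2.01.

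Medians in ethanol were -0.09 for the 11 tested genes of fatty acid oxidation, -0.16 for the 4 of ketone body enzymes, -0.06 for the 8 of coenzyme A synthesis and -0.08 for the 5 of acetyl-CoA and citrate carriers, and none was called. Acadvl, a very-long-chain dehydrogenase gene, missed the threshold in ethanol against control (log2 fold change -0.39, adjusted p = 0.27 in limma). It passed there in 4 of 19 alternatives (adjusted p 2.3e-07 to 0.66 in limma). These include the fit without acetate replicate 2, where 21.5% of all genes were called. Levels of the most abundant genes of these lists follow. Hadha, the trifunctional protein gene, had 107 ± 2.93 CPM in control, 114 ± 10.8 in acetate and 107 ± 4.50 in ethanol, and Acadl, a long-chain dehydrogenase gene, had 75.5 ± 6.68, 69.6 ± 11.1 and 70.8 ± 3.55. Oxct1, which activates ketone bodies, had 316 ± 14.01, 274 ± 65.1 and 270 ± 7.50. Aacs, the acetoacetyl-CoA synthetase gene, had 106 ± 6.32, 117 ± 25.7 and 100.3 ± 10.7. The pantothenate kinase genes Pank3 and Pank2 had 297 ± 24.2 and 71.3 ± 2.39 CPM in control and 251 ± 2.13 and 68.5 ± 1.44 in ethanol. In acetate they had 214 ± 108 and 66.0 ± 3.00. Slc13a5, the citrate importer gene of the plasma membrane, had 150 ± 31.7, 178 ± 16.8 and 140.0 ± 14.004, and the oxoglutarate carrier gene Slc25a11 had 39.1 ± 4.50, 41.5 ± 5.77 and 36.5 ± 4.28.

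**Figure D4:**
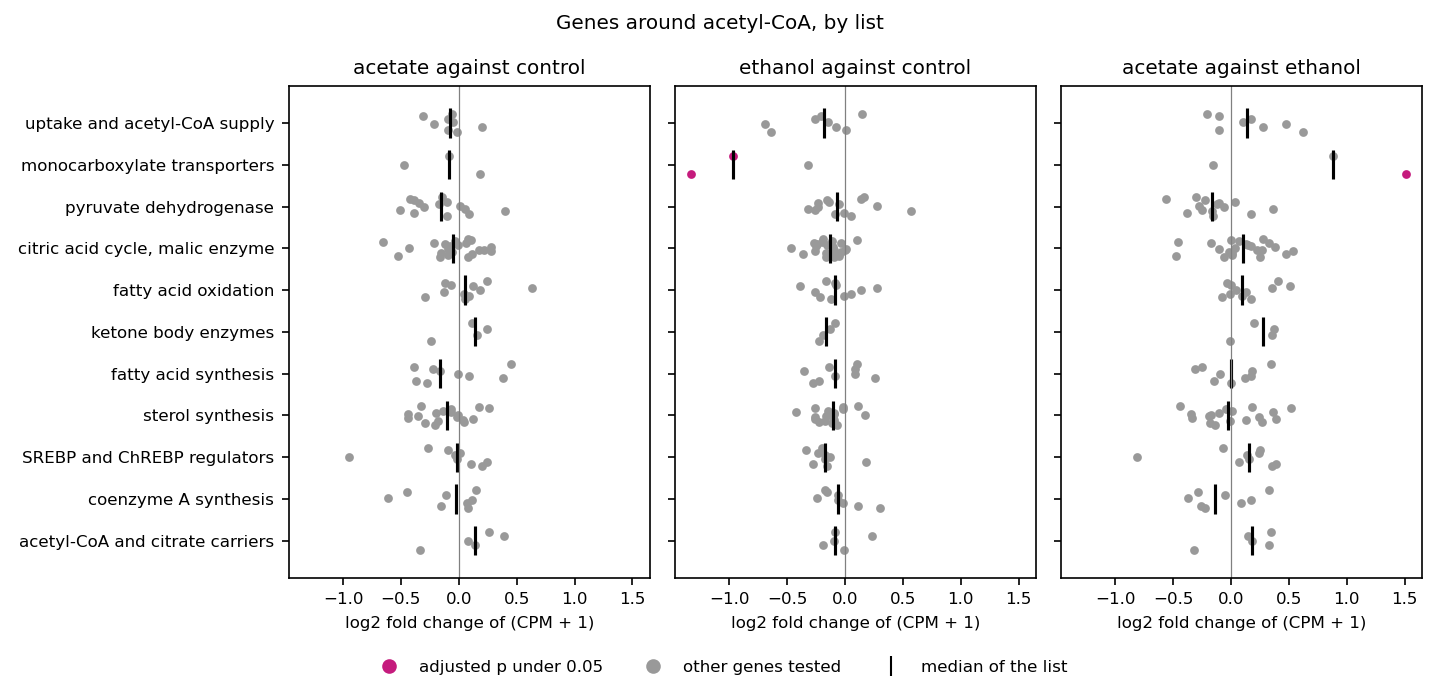
Log2 fold changes of CPM plus 1 (horizontal axes) of the tested genes in the 10 lists and, in the top line, of the 8 genes of acetate uptake and acetyl-CoA supply, in 3 comparisons, with a dot for each gene and a bar at the median of each list. Coloured dots have an adjusted p under 0.05 in limma. Slc16a3 and Bsg, in the transporter list, are the coloured genes.

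The genes whose profile over the 9 libraries was most like that of Acss2 were taken from the 10925 genes whose mean reached 5 CPM. They were Ubl5 (Pearson r = 0.99), a ubiquitin-like protein gene, Wipi1 (0.99), an autophagy gene, the adiponectin receptor gene Adipor1 (0.98), H2-DMb1 (0.98), which takes part in antigen loading, and Kxd1 (0.98). All 5 were lowest in ethanol replicate 3, and the r values carry both the group difference and the spread within groups. Among the 8 genes, Acat2 (r = 0.94) and Slc25a1 (0.92) were most like Acss2, and Acaca (-0.72) ran opposite. These r values describe 9 libraries that share their normalisation.

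Overlapping genes limit some of these levels. Exons of Acss2 overlap those of Ggt7, Gss and Acss2os on the opposite strand, those of Acss1 overlap E130215H24Rik, those of Acss3 overlap Ppfia2, and those of Acat3 overlap Tcp1. The library kit keeps the strand, but whether the counting used it is not stated in these sources, and without strand the reads of such genes cannot be told apart.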

How the data were processed

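Libraries were made with a stranded mRNA kit from total RNA, per the labels' protocols. The submitters' processing notes name Partek, Bowtie2 2.2.5, STAR 2.7.8a and mm10, without saying what each was used for. The authors deposited log2 values of TMM-normalized counts per gene. The lowest value of each library equals an offset of 1e-05 read, which was subtracted to give TMM-scaled CPM. Of values under 20 reads that round to at least 1 read, 85.7% to 87.4% then came out whole within 0.02 read. Of 26202 gene names, 24922 matched GENCODE by symbol and 423 by synonym.

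Genes whose mean reached 1 CPM were fitted with limma 3.58.1 in R 4.3.3 on log2(CPM + 1), with all 9 libraries in 1 model, 3 contrasts and a trended variance; such fold changes understate the change of low genes. The method was tested on simulated data with known changes and the same dispersion for every gene. Those data held no GC trend, no outlying library and no replicate structure, so the test does not cover these features. Replicate numbers were taken from the labels, which state no pairing. Same-numbered libraries deviated together for ethanol and control (r = 0.55, 0.36 and 0.67) and for acetate and ethanol (0.15, 0.25 and 0.62). They did not do so throughout for acetate and control (0.25, -0.10 and 0.41). The alternatives were another pseudocount, filter, scaling, variance model, set of libraries, replicate block, GC correction and each library left out. Genes named outside the 10 are Acat3, the copy of Acat2, the called genes of a list, the most abundant ones where fewer than 2 were called, and the 5 most like Acss2. Emb, Slc16a7, Slc16a8, Slc5a8, Slc5a12, Pdk4, Cpt1a, Dhcr7, Fads1 and Acadvl fall outside this rule and were named after their values were seen. The 10 genes and all lists were chosen with earlier results of these data known.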

Additional observations from a re-analysis of the deposited data

How the results depend on the processing

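The intervals cover spread between 3 libraries a group, and Acss1 and Acss3 were too low to test. Counts of called genes are given in the order acetate against control, ethanol against control, acetate against ethanol, and were 129, 506 and 480. They stayed within 1.5 times of this with a pseudocount of 0.1, no filter, median-of-ratios or quantile scaling and no variance trend. They were 20, 3443 and 107 with only the 6 libraries compared, 293, 1074 and 823 with the replicate block, 650, 2045 and 1431 with the GC trend removed, 2249, 4617 and 3918 with the block and the GC trend removed, and 2773, 6466 and 4262 with the block and without acetate replicate 2. Leaving out 1 library gave 0 to 448, 98 to 2766 and 103 to 1108.

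Of the 8 genes tested, ethanol against control called 2 with only the 6 libraries (26.8% of all genes), with the block (8.35%) and with the GC trend removed (15.9%), 4 with the block and the GC trend removed, where 35.9% of all genes were called, and 5 with the block and without acetate replicate 2, where 50.2% were. In these last settings acetate against ethanol called 4 each (30.4% and 33.1% of all genes), and acetate against control 2 in the latter (21.5%). These 2 were Acss2 and Acat1, both lower, with adjusted p = 0.0032 and 0.038 in limma. Leaving out 1 library called 0 to 0, 0 to 2 and 0 to 2 of the 8 genes. In ethanol against control, the 2 came without acetate replicate 2, where 21.5% of all genes were called. In acetate against ethanol, they came without acetate replicate 3, where 5.48% were. The cause of these changes was not tested.

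Several directions turned among the 8 genes and Acat3. In acetate against control, Acly became 0.018 and Slc25a1 0.025 with quantile scaling, Slc25a1 0.0015 without control replicate 1 and Acaca 0.021 without control replicate 3. Without acetate replicate 3, Acly became 0.046, Slc25a1 0.17, Acss2 0.0081 and Acat2 0.012. Slc16a1 became 0.19 with the GC trend removed, with or without the block, 0.022 without acetate replicate 2 and 0.013 with the block as well. In ethanol against control, Slc16a1 became -0.0029 with the GC trend removed, with or without the block, and -0.014 without control replicate 2. In acetate against ethanol, the GC trend removed gave Slc16a1 0.19 and Acat1 0.052, with or without the block. Without acetate replicate 2, Slc16a1 became 0.0086 and Acat1 0.010, and with the block Acat1 0.0040, Acly -0.0038 and Acat3 -0.013. When 1 library was left out, the ranges of fold changes that turned were, in acetate against control, -0.35 to 0.0081 for Acss2, -0.14 to 0.046 for Acly, -0.17 to 0.022 for Slc16a1, -0.19 to 0.17 for Slc25a1, -0.11 to 0.021 for Acaca and -0.17 to 0.012 for Acat2. For Slc16a1 in ethanol against control the range was -0.014 to 0.029. In acetate against ethanol it was -0.18 to 0.0086 for Slc16a1 and -0.27 to 0.010 for Acat1. Several of the pathway genes named turned as well, and those given here are examples. In ethanol against control, Scd2 went from -0.27 to 0.13 with quantile scaling. Over the alternatives, Hmgcs1 ran from -0.13 to 0.10 there, Slc13a5 from -0.21 to 0.077 and Hadha from -0.042 to 0.017. In acetate against control, Bsg ran from -0.27 to 0.14 and Slc16a3 from -0.048 to 0.26.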

Other observations

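Cpt1a, which codes for the enzyme that admits long-chain fatty acids to mitochondrial oxidation, a source of acetyl-CoA, was chosen after its values were seen. Its levels were 27.3, 32.1 and 27.0 CPM in control, 43.7, 51.2 and 40.8 in acetate and 30.8, 42.2 and 32.8 in ethanol. Every acetate library lay above every control, and ethanol overlapped with acetate. The log2 fold change of acetate against control was 0.63 ± 0.15, with adjusted p = 0.093 in limma and a range of 1.4e-12 to 0.37 over 19 alternatives, 4 of them under 0.05. Pdk4 was also higher in each acetate library than in any control, at 48.3, 34.9 and 37.8 CPM against 30.1, 33.1 and 27.1, with a log2 fold change of 0.40 ± 0.14 and adjusted p = 0.24 in limma.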
